A study of Mus musculus with 9 samples.

Results

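Mature B cells whose antigen receptor had been exchanged were compared with conventional B2 cells. The cells labelled B2B1 had undergone an induced switch of their B cell receptor (BCR) some 30 days earlier and were taken from the peritoneal cavity, under the strain label B1-8VH12/Vk4. The B2 cells came from the spleen under the strain label VH12B1-8/Vk4. Both groups carried a Vk4 label and were backcrossed to C57BL/6. The comparison used 6 of the 9 libraries of the series, 3 B2 and 3 B2B1, and covered the 11099 of 22178 listed genes whose mean over all 9 libraries reached 1 TPM, a unit of transcript abundance scaled by gene length and library total. The 3 remaining libraries, B1 cells from the peritoneal cavity under the same strain label as B2B1, were used to show where B2B1 reached another level than peritoneal B1 cells. Tissue, strain label and receptor switch change together between B2 and B2B1 and cannot be told apart in this comparison. How the cells were purified, by what means the switch was made and whether cells of several mice were pooled is not given in the sources used here, nor is the age of the animals.

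The BCR is a membrane immunoglobulin whose heavy and light chain variable regions set its specificity, coupled to the signalling chains CD79A and CD79B. Ligand binding activates the kinases LYN and SYK, then the adaptor BLNK, phospholipase C, calcium entry, Ras and NF-kB, and the strength of this signal helps to decide which mature B cell type a cell becomes. Heavy chains built on VH12 with a Vk4 light chain bind phosphatidylcholine, a membrane lipid also carried by bacteria, and are typical of B-1 cells, self-renewing B cells of the body cavities. The B1-8 heavy chain comes from an antibody to the hapten nitrophenyl. Follicular B2 cells recirculate through spleen and lymph nodes and answer protein antigens with T cell help.

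The libraries separated by group: of the variance of the tested genes over the 6 libraries, 85.58% lay on the first principal component, which set B2 (scores −54.85 to −52.83) apart from B2B1 (50.75 to 59.23). B2B1 library 1 stood apart on the second component (5.17% of the variance) at −24.3, against 10.65 and 15.66 for the other B2B1 libraries. In the 6 libraries compared, the listed genes summed to 925389 to 943043 TPM and 10711 to 10945 genes reached 1 TPM. TPM keep no read counts, so the depth is unknown. Xist and the Y-linked Ddx3y marked B2 library 2 and B2B1 libraries 1 and 2 as male and the others, all B1 libraries included, as female. Whether a group's 3 libraries stem from different mice is not stated. The p-values therefore rest on the spread between these libraries alone, which may be technical. In RNA from many cells, fewer cells with a transcript and less of it per cell cannot be told apart.

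The switched cells differed from B2 cells across most of the transcriptome. limma called 6995 of 11099 genes (63.0%) at a Benjamini-Hochberg adjusted p under 0.05, and all adjusted p-values below come from that fit. Of these, 2332 (21.0% of the genes tested) were higher in B2B1 and 4663 (42.0%) lower. For 8016 genes (72.2%) the 3 B2 values and the 3 B2B1 values did not overlap. These shares are the background against which each count below should be read. Every called gene named below had groups that did not overlap, unless the text says otherwise. A difference of at least 1 on the log2(TPM + 1) scale, 2-fold, was called for 906 higher and 1011 lower genes, and one of at least 3 for 150 and 93. Genes higher by 2-fold or more made up 2.28% to 2.33% of all TPM in the B2 libraries and 8.38% to 9.58% in the B2B1 libraries, while those lower by as much made up 9.39% to 9.76% and 2.87% to 3.08%. The size of this exchange is seen in the plot of group means, where the genes farthest from the diagonal lie near 0 in 1 of the groups.

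**Figure D1:**
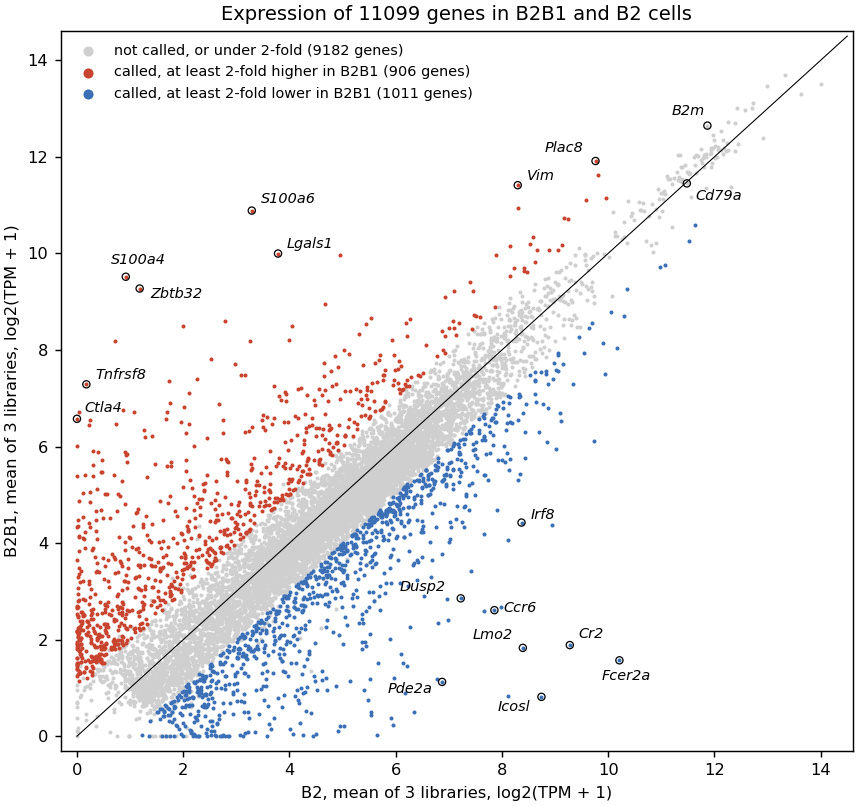
Each point is 1 of the 11099 tested genes, with the mean log2(TPM + 1) of the 3 B2 libraries on the x axis and that of the 3 B2B1 libraries on the y axis, and the diagonal marks equal levels. Red points are the 906 genes called at least 2-fold higher in B2B1, blue points the 1011 called at least 2-fold lower, grey points all others. The circled S100a4, Zbtb32 and Tnfrsf8 lie near 0 in B2, and Fcer2a, Icosl and Cr2 lie near 0 in B2B1.

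The balance of higher and lower calls moved with the scaling of TPM. The median log2 fold change over all genes was −0.19. Rescaling by median-of-ratios factors moved that median to 0.02, and 3494 genes were then higher and 3031 lower. Quantile normalization moved it to −0.06, with 2973 genes higher and 3538 lower. Small differences on the log2 scale are therefore not fixed in sign, whereas differences of 1 or more exceed that shift. Without B2B1 library 1, 6445 genes were called (2063 higher, 4382 lower). With sex as a covariate 6499 genes were called (2130 higher, 4369 lower). Within females (2 B2 libraries, 1 B2B1) and males (1 and 2) taken separately, 6992 of the 6995 called genes had the same sign as reported. That share is no check on sex. The genes were called on these same libraries, and a gene whose groups do not overlap must keep its sign.

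Marker genes were read beside the labels. They were fixed with earlier results of these data known, so they are no independent evidence for the labels. None of them reads the receptor switch itself. Every library had high levels of the BCR signalling chain gene Cd79a (B2 2935, 2848 and 2785 TPM, B2B1 3029.6, 2676 and 2694 TPM, adjusted p = 0.802) and of Ms4a1, which encodes CD20 (mean 1568 and 1934 TPM, adjusted p = 0.128). Median-of-ratios scaling (adjusted p = 0.0171) or leaving out B2B1 library 3 (0.00697) made Ms4a1 a higher call. Bhlhe41, a transcriptional repressor that B-1 cells depend on, was at 1.49, 2.11 and 0.817 TPM in B2 and 102, 59.02 and 62.99 TPM in B2B1 (4.92 ± 0.24 on the log2 scale, adjusted p = 5.05e-07). Spn, the sialophorin CD43 of B-1 cells, rose from a mean of 3.60 to 63.2 TPM and Itgam, the CD11b integrin chain of peritoneal B cells, from 2.24 to 106 TPM. Cd5, the receptor by which B-1a cells are commonly identified, was an exception: it was at 1.09, 0.609 and 0.925 TPM in B2 and 1.32, 1.22 and 1.85 TPM in B2B1 (adjusted p = 0.119, or 0.0456 with median-of-ratios scaling), while B1 libraries held 20.04, 22.9 and 13.4 TPM. The T cell receptor chain gene Cd3g was also higher in those B1 libraries (10.7, 6.62 and 6.12 TPM, against 0.260, 0.346 and 0.512 in B2B1). The T cell list as a whole did not follow it. Of its 5 tested genes 2 were lower in B2B1 than in B1 and 0 higher, with a median difference of −0.002. The part of T cell RNA in the Cd5 level of B1 was not tested.

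Transcripts that were nearly absent in B2 and abundant in B2B1 led the comparison. S100a4, a calcium-binding protein that acts on non-muscle myosin, was at 1.15, 0.992 and 0.581 TPM in the 3 B2 libraries and 811, 659 and 731 TPM in the 3 B2B1 libraries (log2 fold change 8.60 ± 0.23, adjusted p = 1.6e-08). S100a6, which lies in the same gene cluster and binds calcium and annexins, went from 9.90, 11.4 and 5.96 to 2049.6, 1849.6 and 1785 TPM (7.59 ± 0.20, adjusted p = 1.4e-08). Zbtb32, a zinc finger repressor that restrains lymphocyte responses, stood at 1.66, 0.981 and 1.21 TPM in B2 and 611, 613 and 628 TPM in B2B1 (8.09 ± 0.12, adjusted p = 1.39e-09). For all 3 genes the lowest B2B1 value was far above the highest B2 value, and the B2B1 libraries differed little from each other.

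The reverse held for genes of the follicular programme. Fcer2a, the low-affinity IgE receptor CD23, was at 1165, 1283 and 1112 TPM in B2 and 2.40, 1.91 and 1.66 TPM in B2B1 (−8.64 ± 0.20, adjusted p = 6.56e-09). Icosl, the ligand through which B cells signal to ICOS on helper T cells, was at 432, 428 and 422 and 0.462, 1.01 and 0.859 TPM (−7.93 ± 0.20, adjusted p = 1.35e-08). Cr2, the complement receptor CD21 that amplifies BCR signals, was at 654, 638 and 569 and 3.01, 3.89 and 1.58 TPM (−7.39 ± 0.25, adjusted p = 7.72e-08). In B1 cells the means of Fcer2a, Icosl and Cr2 were 9.24, 3.42 and 6.88 TPM, with adjusted p-values against B1 of 0.000683, 0.00345 and 0.0221. The difference of Cr2 to B1 was not called when only those 2 groups were fitted (0.076) or without B1 library 1 (0.0617).

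The DNA just upstream of these genes is shown because the groups differed most in these genes, and because S100a4 and S100a6 lie on chromosome 3 with only S100a5 annotated between them and both rose. Each sequence holds up to 250 bases before the start annotated by RefSeq (GRCm38.p6), 5′ to 3′ on the gene's own strand, at the start farthest 5′ where a gene has several, and ends before the first exon of both RefSeq and GENCODE M21. In GENCODE M21 on the same build S100a4 spans chromosome 3 from 90603771 to 90606045 and S100a6 spans chromosome 3 from 90612882 to 90624181, both on the plus strand. S100a4 overlaps the annotated gene Gm42674 on the same strand, so reads of the pair may not be told apart, and the S100a4 window lies in an intron of Gm42674. No annotated exon overlaps any of the windows. Zbtb32 spans chromosome 7 from 30589681 to 30598909 on the minus strand, Fcer2a chromosome 8 from 3681737 to 3694175 on the minus strand and Icosl chromosome 10 from 78069302 to 78083913 on the plus strand. The windows are chr3:90603520-90603769, chr3:90612644-90612881 and chr10:78069118-78069301 on the plus strand and chr7:30598910-30599159 and chr8:3694176-3694424 on the minus strand. Capitals mark matches to 1 of these motifs, on the strand shown or (as GGGTG for CACCC) on the other: GAGGAA (the core of PU.1 and Ets factors), CACCC (Klf type), the E-boxes CAGCTG and CACGTG, ATTTGCAT (the octamer of Oct factors) and TGACTCA (AP-1).
S100a4: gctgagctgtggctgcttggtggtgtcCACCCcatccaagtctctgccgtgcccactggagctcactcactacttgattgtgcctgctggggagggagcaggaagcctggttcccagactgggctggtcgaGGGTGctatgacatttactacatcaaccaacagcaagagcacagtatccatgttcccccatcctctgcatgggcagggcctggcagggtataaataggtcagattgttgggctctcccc
S100a6: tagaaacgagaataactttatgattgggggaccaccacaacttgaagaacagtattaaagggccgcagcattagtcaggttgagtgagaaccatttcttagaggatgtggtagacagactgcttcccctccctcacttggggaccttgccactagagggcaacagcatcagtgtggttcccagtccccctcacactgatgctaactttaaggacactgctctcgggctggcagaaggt
Zbtb32: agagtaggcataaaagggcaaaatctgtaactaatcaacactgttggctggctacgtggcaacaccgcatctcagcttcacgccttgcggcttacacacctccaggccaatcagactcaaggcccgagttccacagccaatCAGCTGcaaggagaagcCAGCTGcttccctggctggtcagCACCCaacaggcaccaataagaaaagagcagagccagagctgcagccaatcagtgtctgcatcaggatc
Fcer2a: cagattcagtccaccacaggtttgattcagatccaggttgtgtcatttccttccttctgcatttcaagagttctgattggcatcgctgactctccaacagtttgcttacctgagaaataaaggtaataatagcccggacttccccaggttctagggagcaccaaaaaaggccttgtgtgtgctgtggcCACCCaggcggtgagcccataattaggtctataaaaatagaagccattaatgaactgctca
Icosl: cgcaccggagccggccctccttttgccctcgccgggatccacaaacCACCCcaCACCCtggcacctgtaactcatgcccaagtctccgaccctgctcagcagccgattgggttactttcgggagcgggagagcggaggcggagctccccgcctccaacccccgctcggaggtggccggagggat
CACCC occurred 2 times upstream of S100a4 and of Icosl and 1 time upstream of Zbtb32 and of Fcer2a, and CAGCTG occurred 2 times upstream of Zbtb32. The window of S100a6 held none of the motifs. Over full windows of 250 bases, CACCC was present in 56.6% of the 8328 tested genes that had an entry, in 65.4% of the 674 such genes higher by 2-fold or more and in 60.9% of the 717 lower by as much. GAGGAA was in 22.4% of all, 27.0% of the higher and 24.5% of the lower set, and CAGCTG in 11.3%, 14.4% and 14.5%. CACGTG was in 8.66%, 6.53% and 8.65%, the octamer in 1.36%, 1.63% and 2.51%, and TGACTCA in 2.77%, 4.45% and 3.21%. These shares describe letters in the windows and were not tested.

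A set of genes went from near absence to clear expression. Under 1 TPM in every B2 library and at 20 TPM or more in every B2B1 library were 24 genes, and 13 of these also reached 20 TPM in every B1 library. Tnfrsf8, the activation receptor CD30, was at 0.261, 0.0753 and 0.0661 TPM in B2 and 184, 128 and 159 TPM in B2B1 (7.11 ± 0.28, adjusted p = 1.6e-07). Ctla4, the inhibitory receptor best known from T cells, had no TPM in the B2 libraries, each listed at 0, and 143, 44.2 and 132 TPM in B2B1, where library 2 was low. Fgl2, a secreted immunoregulatory protein, rose from 0.569, 0.899 and 0.510 to 189, 242 and 523 TPM. Several of these genes are better known outside lymphocytes. They include heterotrimeric G protein subunits Gnb3 (0.168 to 91.2 TPM on average) and Gng13 (listed at 0 in every B2 library, 70.3 in B2B1). Also among them were the tubulin gene Tubb3 (0.716 to 31.6) and Tppp (0.321 to 58.8), which encodes a tubulin polymerisation factor of glia. Mafa, the insulin gene activator of pancreatic beta cells, went from 0.430 to 52.2. The transcription factor Sox5 (0.229 to 48.1) and the retinoic acid receptor Rarg (0.236 to 41.2) belonged to the same set, as did Cd63, Cd80, Il2rb, Lag3, Chst7, Gas7, Kifc3, Actn1, Asph, Serpinb8, Slc9a3r2, Tppp3 and the macrophage antigen gene Emr1, for which the part of macrophage RNA was not tested.

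Going the other way, 10 genes were at 20 TPM or more in every B2 library and under 1 TPM in every B2B1 library, and 7 of these were under 1 TPM in every B1 library too. Dennd3, an exchange factor of Rab GTPases, was at 83.2, 77.01 and 82.01 TPM in B2 and 0.336, 0.484 and 0.462 TPM in B2B1. Itgb3, the integrin beta 3 chain, was at 34.002, 27.3 and 28.9 and 0.250, 0.153 and 0.0759 TPM, and Gdf11, a secreted TGF-beta family factor, fell from 29.1 to 0.0766 TPM. Cpm, Emid1, Fam101b, Myl4, Nlrc3 and Zfp608 completed the named genes of this set.

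In absolute terms the largest gains were of a different kind. Vim, the intermediate filament vimentin, went from 306, 280.4 and 359 to 2510.4, 2543 and 3164 TPM, Plac8 from 849, 929.98 and 824 to 4215, 3434 and 3955 TPM and B2m, the light chain of MHC class I, from 3863, 3621 and 3723 to 7599, 5729 and 6049 TPM. B2m also stood above B1 cells (mean 3256 TPM, log2 difference 0.98 ± 0.10, adjusted p = 0.000474). The other 7 of the 10 largest gains were S100a6, Crip1, Tpt1, Eef1a1 and the ribosomal protein genes Rplp1, Rps12 and Rps18, of which Tpt1 and Rps18 were not called with quantile normalization (adjusted p = 0.507 and 0.626). Of the 10 largest losses, Cd74, H2-Ab1, H2-Aa, H2-Eb1 and H2-DMb2 belong to the MHC class II pathway. Fcer2a, the surface antigen gene Ly6d, the ribosomal protein gene Rps27 and the short entry Mir3064 were among the others. With median-of-ratios scaling H2-Aa, H2-Eb1 and Rps27 were not called (adjusted p = 0.117, 0.145 and 0.349).

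**Figure D2:**
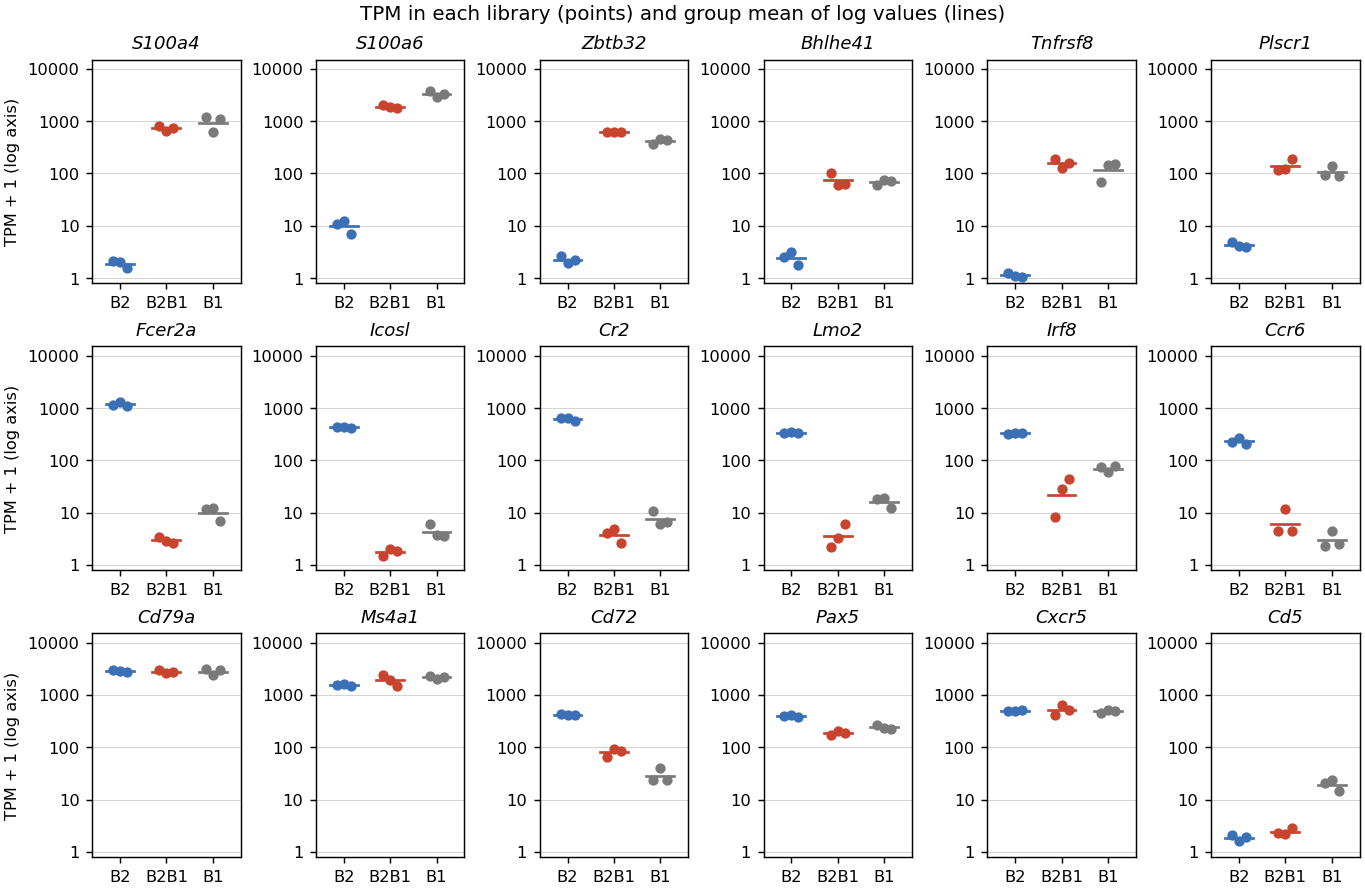
TPM plus 1 on a log axis in each library of B2 (blue), B2B1 (red) and B1 (grey) for 18 genes, where lines are means of log values. The first 6 genes (S100a4, S100a6, Zbtb32, Bhlhe41, Tnfrsf8, Plscr1) lay at or below 11.4 TPM in every B2 library and at or above 59.0 TPM in every B2B1 library, the next 6 show the reverse order, and of the last 6 Cd79a, Ms4a1, Cxcr5 and Cd5 were not called between B2B1 and B2.

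Of 20 tested B-1 cell marker genes, 17 were higher in B2B1 and 2 lower, with a median log2 fold change of 5.0 beside −0.19 for all genes. The higher members included Ctla4, Fgl2, Anxa2 (3.004 to 382 TPM) and Lgals1, the glycan-binding galectin 1 (12.8 to 1023 TPM). The membrane repair gene Myof was among the lower ones. Against B1, 6 of these 20 were higher in B2B1 and 2 lower, with a median difference of 0.09. This list was drawn up from known B-1 genes with results of these data in view, so its direction is no independent evidence.

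Of 14 follicular markers 12 were lower and 1 higher, with a median of −2.52. Satb1, a chromatin organiser, fell from 70.02 to 1.92 TPM, Cd55, a complement regulator, from 519 to 60.9 TPM and Bach2, a repressor that holds back plasma cell fate, from 85.1 to 11.9 TPM. Klf2, which controls trafficking receptors, was the higher member (330.02 to 511 TPM). Cxcr5, the receptor that brings B cells into follicles, was at 493, 498 and 508 TPM in B2 and 417, 632 and 504 TPM in B2B1 (0.03 ± 0.13, adjusted p = 0.856), and the groups overlapped.

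Marginal zone markers had 2 higher and 6 lower of 13, median −0.45. Asb2 fell from 18.2 to 0.0142 TPM, and Notch2, the receptor on which marginal zone B cells depend, from 178 to 60.5 TPM. Fcrl5, an inhibitory Fc receptor-like protein shared by marginal zone and B-1 cells, rose from 31.6, 29.1 and 27.2 to 151, 183 and 285 TPM. The Notch target Dtx1 did not pass (175 and 162 TPM, adjusted p = 0.474), while another, Hes1, fell from 46.9 to 5.95 TPM.

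Genes shared by all B cells were reduced for 10 of 16 and raised for 2 (5 raised with median-of-ratios scaling, 4 without B2B1 library 3), with a median of −0.60. Pax5, the factor that maintains B cell identity, was at 394, 413 and 377 TPM in B2 and 171, 206 and 185 TPM in B2B1 (−1.07 ± 0.09, adjusted p = 1.17e-05), and its partner Ebf1 at means of 51.1 and 26.5 TPM. Cd72, an inhibitory coreceptor, fell from 417 to 79.2 TPM, and all B2B1 values lay below all B2 values.

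**Figure D3:**
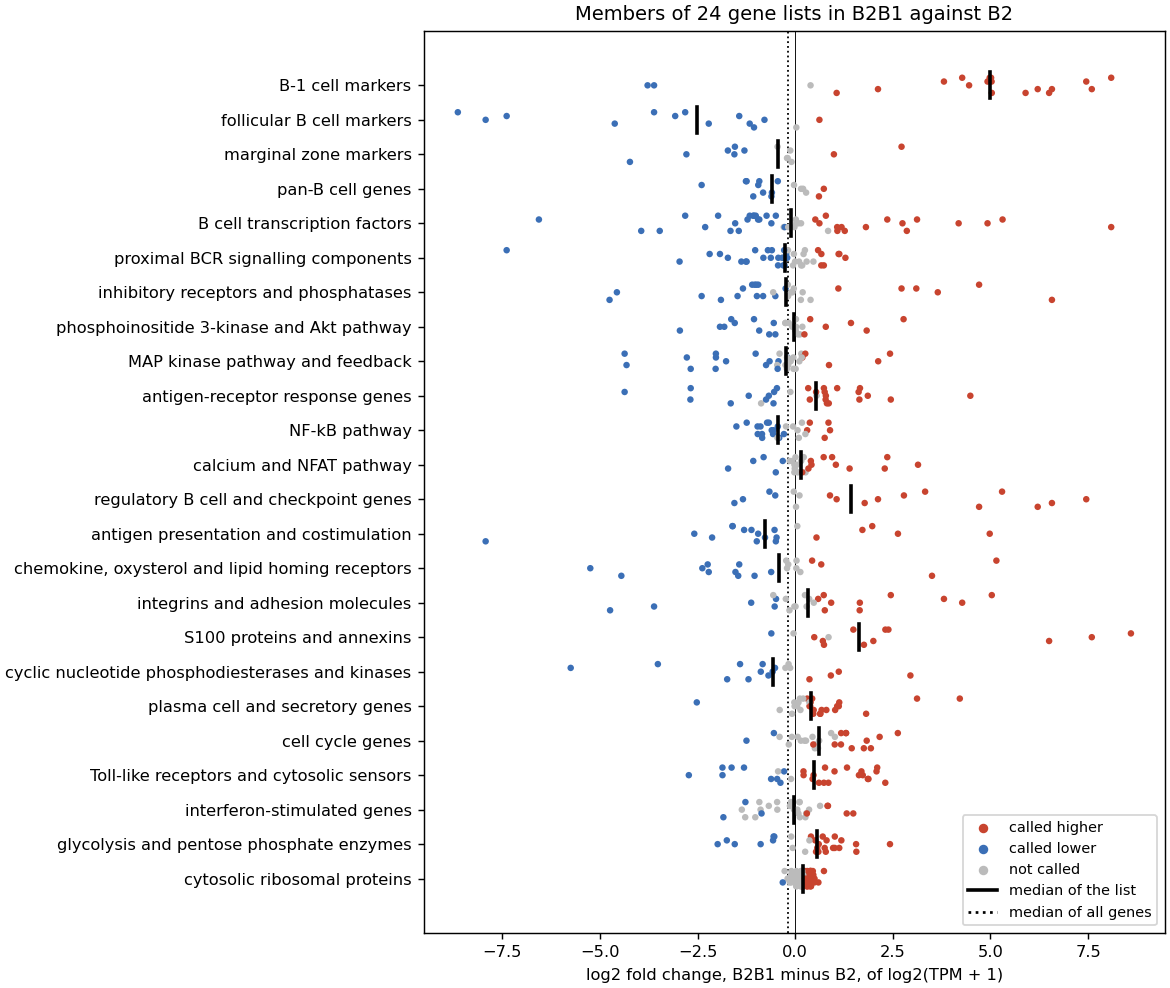
Each point is a tested member of 1 of 24 gene lists, with its log2 fold change in B2B1 against B2 on the x axis, coloured by whether it was called higher, called lower or not called. Thick lines are list medians and the dotted line is the median of all genes at −0.19. B-1 markers (median 5.0), S100 proteins and annexins (1.62) and regulatory genes (1.42) lie to the right, and follicular markers (−2.52) to the left.

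Transcriptional regulators moved in both directions: of 44 tested factors of B cell biology, 16 were higher and 20 lower, with a median of −0.10. Beside Zbtb32, Sox5 and Bhlhe41, the basic leucine zipper factor Nfil3 rose from 1.84, 1.42 and 2.05 to 43.3, 35.9 and 76.01 TPM and Prdm1, the regulator of plasma cell differentiation, from 0.471, 0.764 and 0.522 to 14.9, 6.50 and 20.8 TPM. Ahr, the receptor for aryl hydrocarbons and indoles, rose from 1.22 to 13.97 TPM and Myb, a factor usually tied to progenitors, from 2.11 to 21.4 TPM. Lmo2, an adaptor of transcription factor complexes, showed the widest loss, from 329.96, 349 and 326 to 1.22, 2.27 and 5.20 TPM (−6.56 ± 0.32, adjusted p = 5.46e-07). Irf8, which supports follicular and germinal centre B cells, fell from 323, 333 and 333 to 7.16, 26.9 and 42.5 TPM (−3.94 ± 0.49, adjusted p = 0.000127), and Bcl6, the repressor of germinal centre B cells, from 41.96 to 3.26 TPM. Irf4, which opposes several IRF8 functions, went from 71.9 to 153 TPM. Ikzf1, an activator of lymphocyte identity, was not called (81.8 and 83.3 TPM, adjusted p = 0.825).

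Among 26 chromatin and DNA methylation regulators, 4 were higher and 14 lower, median −0.43. The histone deacetylases diverged, Hdac9 rising from 9.44 to 33.5 TPM and Hdac7 falling from 96.1 to 31.1 TPM. Ezh2, the Polycomb methyltransferase of dividing cells, rose from 17.8 to 34.7 TPM, and the Polycomb reader Cbx7 fell from 220.4 to 92.5 TPM.

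The signalling machinery of the BCR was altered unevenly. Of 40 tested proximal components, 7 were higher and 21 lower, with a median of −0.25; with median-of-ratios scaling the split was 14 and 14, and with quantile normalization 13 and 15, so no direction is given for the group. Named kinases and adaptors differed in direction. Blk, a Src family kinase, rose from 395 to 658 TPM, Syk from 667 to 1002 TPM and Lck from 6.72 to 17.9 TPM, while Lyn did not pass (296 and 288 TPM, adjusted p = 0.704). The adaptor Blnk fell from 396, 382 and 402 to 145, 175 and 178 TPM (−1.24 ± 0.10, adjusted p = 8.1e-06), the PI3K adaptor Pik3ap1 from 145 to 37.6 TPM and Btk from 247 to 140.2 TPM.

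The exchange factors of the RasGRP family diverged. Rasgrp3, the main form of B cells, was at 146, 174 and 147 TPM in B2 and 25.8, 14.8 and 18.05 TPM in B2B1 (−2.96 ± 0.21, adjusted p = 4.99e-06), and Rasgrp2 fell from 402 to 121 TPM. Rasgrp1, the main form of T cells, rose from 65.1, 70.5 and 61.7 to 150.3, 142 and 143 TPM (1.13 ± 0.06, adjusted p = 1.18e-06). The B2 and B2B1 values did not overlap for any of the 3. Itpr3, a calcium release channel, fell from 174 to 37.5 TPM.

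Brakes on BCR signalling moved in both directions: 6 of 29 inhibitory receptors and phosphatases were higher and 14 lower, median −0.25. That was 69.0% of the list called, beside 63.0% of all genes with a median of −0.19. The list as a whole thus lay near all genes. The gains were Ctla4, Lag3, Cd200r1 (listed at 0 in every B2 library and at 16.1, 9.31 and 10.3 TPM in B2B1), Fcrl5, Dok2 and Ptpn22, a phosphatase of Src family kinases that rose from 39.1, 27.3 and 72.1 to 404, 289 and 444 TPM (3.10 ± 0.31, adjusted p = 3.51e-05). The losses were led by Pag1, a membrane anchor for the kinase CSK, which fell from 73.9, 67.9 and 78.8 to 1.85, 1.79 and 1.64 TPM (−4.75 ± 0.09, adjusted p = 5.01e-09), and by Fcrl1, at 492 and 20.6 TPM. Csk itself fell from 267 to 137 TPM, the phosphatase gene Ptpn6 from 713 to 358 TPM and the inhibitory receptor gene Btla from 529.5 to 190.3 TPM. Fcgr2b, the inhibitory IgG receptor, was not called (254 and 248 TPM).

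In the MAP kinase pathway the negative regulators showed the largest differences. Of 32 tested members 5 were higher (3 without B2 library 1, without B2 library 3 or without B2B1 library 3) and 14 lower, median −0.23. Dusp2, a nuclear phosphatase of MAP kinases, was at 154, 156 and 136 TPM in B2 and 3.30, 8.62 and 8.19 TPM in B2B1 (−4.37 ± 0.27, adjusted p = 2.24e-06). Dusp6, a cytosolic phosphatase of the same family, was at 40.9, 52.9 and 40.7 and 1.27, 1.34 and 1.22 TPM (−4.32 ± 0.13, adjusted p = 3.45e-08). All B2B1 values lay far below all B2 values in both genes. Dusp16, Dusp1, Dusp7 and Dusp4 were lower as well, with log2 fold changes of −2.77, −2.68, −2.04 and −2.03, while Dusp10, a phosphatase of JNK and p38, rose from 9.13 to 53.5 TPM and Dusp5 from 2.84 to 15.01 TPM. The kinase gene Mapk3 did not pass (adjusted p = 0.93).

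Among 29 genes that respond to antigen receptor engagement, 16 were higher and 10 lower, median 0.54. The stress-responsive factor Atf3 went from 0.537, 0.232 and 0.562 to 15.9, 40.6 and 46.1 TPM (4.49 ± 0.44, adjusted p = 2.99e-05) and Cd44, an activation-associated hyaluronan receptor, from 27.1 to 154 TPM. Several AP-1 and Egr family members rose, with Jun at 12.5 and 65.7 TPM (not called without B2 library 1 or 3, adjusted p = 0.0612 and 0.0693), Fosb at 3.31 and 12.2 and Egr3 at 9.15 and 30.9. The B2B1 mean of Jun rested mostly on library 3, at 7.16 on the log2(TPM + 1) scale against a mean of 4.82 for libraries 1 and 2. Nr4a1, a common reporter of recent BCR signalling, rose from 16.5, 21.3 and 18.2 to 28.7, 34.8 and 31.5 TPM (0.73 ± 0.16, adjusted p = 0.00331). It was also above B1 cells, which held 10.6, 16.3 and 11.2 TPM (adjusted p = 0.00108). Cd69, an early activation antigen, went the other way, from 151, 167 and 177 to 15.5, 37.6 and 26.1 TPM (−2.68 ± 0.26, adjusted p = 3.03e-05), together with Dusp2, Dusp1, Zfp36 and Btg1. Egr1 did not pass (adjusted p = 0.742). The time between isolation of the cells and lysis, which can move such genes, is not given in the sources used here.

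Further downstream, 15 of 27 NF-kB pathway genes were lower and 5 higher, median −0.45 (with 9 higher members under either rescaling and 11 or 14 lower). Traf5, an adaptor of TNF receptors, fell from 119 to 41.3 TPM and Nfkb2, the p100 subunit, from 261 to 133 TPM, whereas the inhibitor gene Nfkbie rose from 99.2 to 185 TPM and Bcl3 from 57.01 to 107 TPM. Of 27 calcium and NFAT genes 11 were higher and 5 lower, median 0.15 (17 and 3 with median-of-ratios scaling, and 3 lower without B2 library 2 or without B2B1 library 3). Nfatc1, the NFAT form induced by sustained signalling, rose from 75.8, 72.1 and 68.7 to 355, 338 and 436 TPM (2.36 ± 0.17, adjusted p = 4.13e-06). Kcnn4, the potassium channel that sustains calcium entry, rose from 14.6, 16.5 and 12.2 to 125, 147 and 132 TPM (3.15 ± 0.14, adjusted p = 2.57e-07). Calcineurin was lower, with Ppp3ca at 13.05 and 3.09 TPM and Ppp3cc at 88.03 and 49.997.

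Members of the PI3K and Akt pathway had 6 higher and 10 lower of 28, median −0.04; median-of-ratios scaling gave 11 and 9, so the group has no firm direction. Pik3cg, the catalytic subunit coupled to G proteins, fell from 40.5 to 4.86 TPM and Rictor, of the mTORC2 complex, from 31.3 to 8.18 TPM. The lipid phosphatase gene Inppl1 (SHIP2) rose from 3.47, 3.85 and 3.54 to 31.4, 32.2 and 28.3 TPM, and Phlpp1, an Akt phosphatase, from 11.4 to 43.5 TPM. Pik3cd, the main catalytic subunit of B cells, was not called (adjusted p = 0.843). The bars of the pathway plot show how members of 1 pathway differed in sign.

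**Figure D4:**
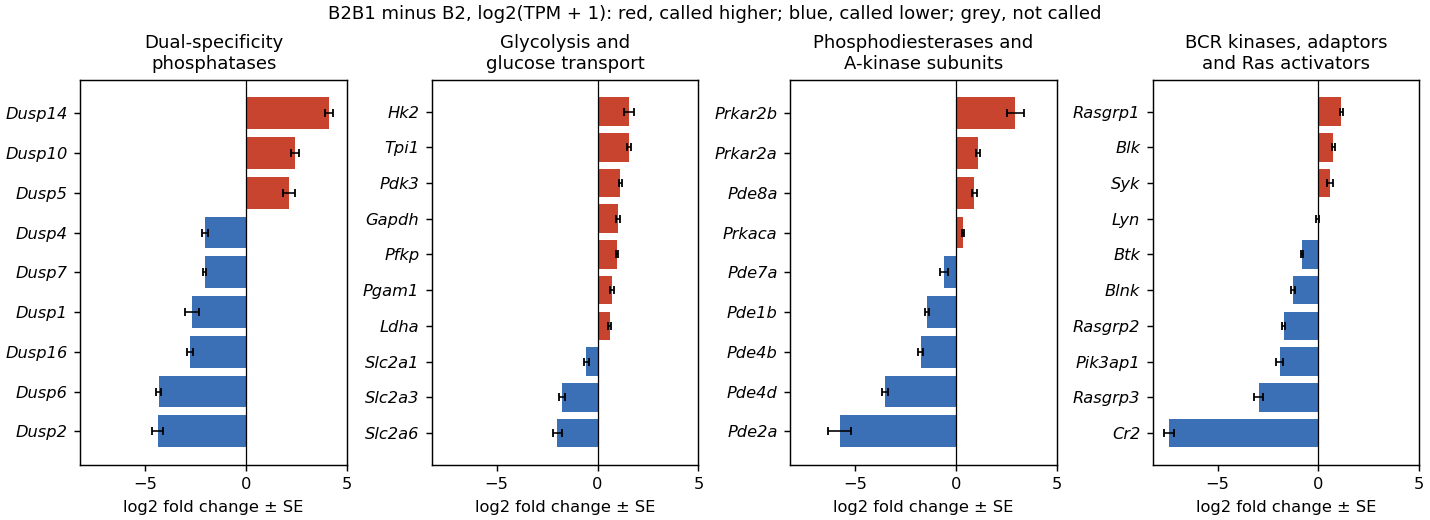
Bars give the log2 fold change of log2(TPM + 1) in B2B1 against B2 with its standard error for members of 4 pathways, ordered from higher to lower, red where called higher, blue where called lower and grey where not called. Of the 9 dual-specificity phosphatases drawn Dusp14, Dusp10 and Dusp5 were higher and 6 lower, and Rasgrp1 was higher while Rasgrp2 and Rasgrp3 were lower. In the glycolysis panel the enzymes drawn were higher while 3 glucose transporters were lower. These bars are a choice: 7 of the 29 tested list members were lower, and Pdk1, which fell, is not drawn.

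Among 18 regulatory and checkpoint genes 11 were higher and 4 lower, median 1.42. Il10, the cytokine of regulatory B cells, was listed at 0 in 2 B2 libraries and at 0.0822 TPM in the third, and stood at 15.9, 2.23 and 19.03 TPM in B2B1 (3.33 ± 0.59, adjusted p = 0.00101). Library 2 was well below the other B2B1 libraries, though above all B2 and B1 values (2.002, 0.879 and 1.49 TPM in B1). Lgals3, galectin 3, rose from 4.97, 4.48 and 4.75 to 337, 200.4 and 167 TPM, and Havcr1, the phosphatidylserine receptor TIM-1, from 0.211 to 7.44 TPM. Ebi3, a cytokine subunit shared by interleukins 27 and 35, rose from 18.4 to 67.5 TPM, while its possible partner Il12a was not called (46.3, 55.7 and 51.9 TPM in B2, 43.6, 42.3 and 75.7 in B2B1, adjusted p = 0.965). Cd1d1, which presents lipids, fell from 100.2 to 33.8 TPM.

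Genes of antigen presentation and costimulation were mostly lower, 13 of 19 against 5 higher, median −0.77. Ciita, the master regulator of class II genes, fell from 249, 294 and 274 to 76.4, 91.5 and 100.2 TPM (−1.60 ± 0.12, adjusted p = 7.22e-06). The class II pathway genes H2-Oa and H2-Ob had log2 fold changes of −2.58 and −2.13, the class II chain H2-Ab1 one of −0.95 and the invariant chain Cd74 one of −0.50, differences between genes that were not tested. H2-Ab1 was still at 2277, 2901 and 2799 TPM in B2B1 against 5096, 5105 and 5119 TPM in B2. The costimulatory ligands diverged: Icosl fell, as given above, and Cd80, a ligand of CD28 and CTLA4, rose (0.876, 0.758 and 0.970 TPM in B2, 68.8, 41.97 and 67.2 TPM in B2B1), and Cd24a, a glycosylated surface antigen, rose from 315 to 1998 TPM, above the 779 TPM of B1 cells (adjusted p against B1 = 0.00168).

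Cytokine receptors had 9 higher and 15 lower of 27, median −0.36. Il2rb, the beta chain for interleukins 2 and 15, rose from 0.143, 0.206 and 0.217 to 24.6, 30.6 and 28.998 TPM and Il6st, the signal transducer gp130, from 8.52 to 79.4 TPM. Il5ra, the interleukin 5 receptor chain that supports B-1 cells, rose from 15.5, 16.1 and 12.9 to 69.8, 47.6 and 64.3 TPM and remained below the 205, 135 and 191 TPM of the B1 libraries (adjusted p against B1 = 0.000907). The beta chain gene Csf2rb, with which it pairs, rose from 17.2 to 146 TPM. Csf2rb shares much of its sequence with Csf2rb2, so reads of these genes may have been exchanged. Il21r, the receptor for the helper T cell cytokine interleukin 21, fell from 197, 209.7 and 197 to 33.7, 32.9 and 63.8 TPM and Il10ra from 218 to 57.3 TPM.

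Of 16 TNF receptor family members 5 were higher and 8 lower, median −0.48. Beside Tnfrsf8, Tnfrsf19 went from 0.0781 to 35.7 TPM. The receptors for the survival factor BAFF diverged: Tnfrsf13c, the BAFF receptor, was at 362, 355 and 334 TPM in B2 and 99.7, 135 and 120.3 TPM in B2B1 (−1.57 ± 0.10, adjusted p = 2.91e-06), and Tnfrsf13b, the TACI receptor for BAFF and APRIL, was at 92.8, 113 and 92.1 and 214, 184 and 132 TPM (0.80 ± 0.16, adjusted p = 0.00216). Their order was thus reversed, since B2 cells had more TPM of Tnfrsf13c and B2B1 cells more of Tnfrsf13b. Cd40, the receptor for T cell help, fell from 169 to 78.7 TPM. Complement and Fc receptors had 5 higher and 7 lower of 15, median −0.10. Fcamr, a receptor for IgM, rose from 23.7 to 77.3 TPM and was above B1 cells (21.03 TPM).

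Of the receptors that place B cells in lymphoid organs, several were lower. Of 20 homing receptors 10 were lower and 4 higher, median −0.42. That was 70.0% of the list called, not far from the 63.0% of all genes (42.0% lower, 21.0% higher). Ccr6, the receptor for CCL20, was at 223, 266 and 208 TPM in B2 and 3.41, 10.5 and 3.49 TPM in B2B1 (−5.25 ± 0.38, adjusted p = 4.58e-06), and Cnr2, the cannabinoid receptor that helps to hold B cells in the spleen, at 111, 113 and 107 and 8.18, 3.65 and 2.10 TPM (−4.45 ± 0.36, adjusted p = 9.26e-06). Ccr7, the receptor for T cell zone chemokines, fell from 272 to 62.7 TPM and Gpr183, a receptor for oxysterols, from 125 to 61.04 TPM. Receptors of inflamed and intestinal tissue rose: Ccr1 was at 2.18, 2.44 and 2.42 TPM in B2 and 163, 92.6 and 109 TPM in B2B1, and Ccr9, the receptor for intestinal CCL25, at means of 1.20 and 24.2 TPM. S1pr1, the receptor for exit into blood and lymph, was not called (280.5 and 241 TPM, adjusted p = 0.193).

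Of 24 adhesion molecules, 10 were higher and 5 lower, median 0.33. Itgb1, the common beta 1 chain, was at 24.6, 26.3 and 22.96 TPM in B2 and 479, 499 and 506 TPM in B2B1 (4.28 ± 0.07, adjusted p = 1.39e-09), and the beta 7 chain gene Itgb7 at means of 215 and 358 TPM. The leukocyte beta 2 chain gene Itgb2 was not called (124 and 123 TPM, adjusted p = 0.822).

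Calcium-binding S100 proteins and annexins had 11 higher and 1 lower of 14, median 1.62. Anxa2 was at 3.26, 2.73 and 3.02 TPM in B2 and 559, 336 and 251 TPM in B2B1 (6.50 ± 0.26, adjusted p = 1.85e-07). Its binding partner S100a10 rose from 293, 268 and 288 to 1527, 979 and 979 TPM and Anxa5, which binds phosphatidylserine, from 40.7 to 207 TPM. Ahnak, a giant scaffold that binds the complex of ANXA2 and S100A10, went from 29.5, 21.1 and 42.1 to 1116, 866 and 1047 TPM (5.03 ± 0.24, adjusted p = 4.33e-07). The cytoskeleton list as a whole was split, with 16 higher and 14 lower of 40 (median 0.01): Pstpip2, Ahnak and Vim rose, and Myl4, the actin-severing gelsolin gene Gsn (102 to 11.6 TPM) and the focal adhesion gene Zyx (42.8 to 5.23 TPM) fell. Lmna, which encodes the nuclear lamins A and C, rose from 3.37, 0.929 and 3.40 to 114, 187 and 199.6 TPM.

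Second messenger genes were rearranged. Phosphodiesterases and cyclic nucleotide kinases had 4 higher and 10 lower of 17, median −0.58. Pde2a, which breaks down cyclic AMP when cyclic GMP is present, was at 124, 104 and 122 TPM in B2 and 1.22, 1.33 and 0.999 TPM in B2B1 (−5.75 ± 0.56, adjusted p = 2.95e-05), and the cyclic AMP esterases Pde4d and Pde4b fell from 11.7 to 0.104 and from 123 to 36.2 TPM. Prkar2b, a regulatory subunit of protein kinase A, rose from 0.568, 0.754 and 0.605 to 17.3, 9.10 and 10.03 TPM (2.95 ± 0.42, adjusted p = 0.000278). Heterotrimeric G protein and RGS genes had 9 higher and 12 lower of 28, median −0.07 (12 and 10 with median-of-ratios scaling), with gains of Gnb3 and Gng12 and a loss of Gna15 (18.2 to 0.910 TPM). Tetraspanins had 5 higher and 9 lower of 16, median −0.25. Cd9 was at 15.02, 15.5 and 16.04 TPM in B2 and 419, 336 and 334 TPM in B2B1, more than in B1 cells (139, 141 and 155 TPM, adjusted p against B1 = 8.62e-05), and Cd63, of lysosomes and exosomes, was at 0.333, 0.432 and 0 and 81.5, 53.2 and 47.96 TPM.

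Genes of later B cell fates were detected side by side. The plasma cell and secretory list had 18 higher members and 1 lower of 29, median 0.40. Derl3, of endoplasmic reticulum protein disposal, rose from 2.53, 2.82 and 4.32 to 85.2, 59.3 and 87.5 TPM (4.21 ± 0.28, adjusted p = 3.34e-06), and the lower member Fkbp11, a secretory folding factor, fell from 16.2, 12.4 and 18.1 to 0.715, 3.01 and 2.39 TPM. Xbp1, the factor that expands the secretory apparatus, was not called (89.8 and 95.7 TPM, adjusted p = 0.649). Germinal centre and memory genes had 8 higher and 5 lower of 16, median 0.55. Bcl6, the repressor that directs the germinal centre programme, fell from 41.96 to 3.26 TPM. The memory-associated ecto-enzyme Nt5e (CD73) rose from 0.931 to 7.47 TPM.

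Of 28 cell cycle genes 12 were higher and 2 lower, median 0.60, and 14 did not pass. With a minimum mean of 5 TPM, 6 of 17 were higher. Mki67, expressed in dividing cells, was at 1.10, 2.04 and 1.88 TPM in B2 and 28.2, 12.2 and 10.3 TPM in B2B1 (2.63 ± 0.61, adjusted p = 0.00461). Top2a, the topoisomerase of mitosis, was at 2.53, 3.84 and 3.57 and 31.3, 12.7 and 14.7 TPM. For both genes B2B1 library 1 was highest and all B2B1 values lay above all B2 values, and without that library 8 members were called higher. The replication genes Mcm2 and Mcm4 were not called (adjusted p = 0.799 and 0.371). Ccnd2, the D-type cyclin of B cells, rose from 14.3, 12.8 and 11.9 to 156, 149.7 and 97.2 TPM (3.25 ± 0.46, adjusted p = 0.000268) and Ccnd3 fell from 87.8 to 56.2 TPM. The list of D-type cyclins and their inhibitors had 5 higher and 3 lower of 11, median −0.24 (5 lower without B1 library 2, which shares in the estimate of the spread).

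Among 18 genes of the Bcl2 family 8 were higher and 5 lower (3 lower with either rescaling or without B2 library 2), median 0.16, and genes of either function rose. Mcl1, a protector from death, was at 499, 457 and 452 TPM in B2 and 1077, 1022 and 1141 TPM in B2B1, while the killers Bbc3 (PUMA) and Pmaip1 (NOXA) rose from 2.95 to 17.3 and from 11.5 to 36.9 TPM and Bmf fell from 13.1 to 2.71 TPM. Bcl2a1b and Bcl2a1d rose as well, but these near-identical copies can exchange reads. Genes known as p53 targets had 5 higher and 9 lower of 17, median −0.56 (3 higher without B2 library 1, without B2 library 3 or without B2B1 library 1), with Sesn1 falling from 318 to 38.4 TPM and Ddit4 from 215 to 46.96 TPM.

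Innate sensing had 18 higher and 9 lower genes of 29, median 0.47. The TLR4 cofactor gene Ly96 rose from 15.03, 21.6 and 14.4 to 90.8, 68.3 and 68.1 TPM, and the adaptors Ticam1 and Ticam2 from 18.3 to 70.1 and from 5.06 to 29.7 TPM. Nod2, a sensor of bacterial peptidoglycan, rose from 2.10 to 12.1 TPM, below the 21.2 TPM of B1 cells (adjusted p against B1 = 0.00604). Tlr9, the sensor of bacterial DNA, rose from 90.7 to 184 TPM. Tlr3, the sensor of double-stranded RNA, fell from 14.6, 17.3 and 12.5 to 2.41, 1.10 and 0.857 TPM and Tmem173, which encodes STING, from 134 to 36.7 TPM.

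Interferon-stimulated genes had 5 higher and 3 lower of 29, median −0.03, so 27.6% were called beside 63.0% of all genes. The count rested on B2B1 library 1. Ifit3 was at 31.9, 26.5 and 27.4 TPM in B2 and 123, 15.7 and 14.5 TPM in B2B1, and Irf7 at 75.9, 59.8 and 62.7 and 56.1, 12.9 and 25.6 TPM. Without B2B1 library 1, 15 members were called lower and 5 higher, and the log2 fold change of Ifit3 was −0.88 (adjusted p = 0.000863) in place of 0.10. Without B2 library 3, 3 members were higher. Ifit3 showed both directions, with B2B1 library 1 above and libraries 2 and 3 below every B2 value.

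Glucocorticoid and circadian genes had 3 higher and 9 lower of 18, median −0.47. The clock genes Per2 and Arntl fell from 7.91 to 1.47 and from 29.7 to 10.2 TPM, and Sgk1 from 21.4 to 1.22 TPM. The hour of isolation is not given in the sources used here. Of 9 tested retinoid and nuclear receptor genes 4 were higher and 1 lower (2 lower without B2B1 library 3), median 0.73, and Rarg was at 0.330, 0.163 and 0.215 TPM in B2 and 39.6, 37.97 and 45.99 TPM in B2B1 (5.09 ± 0.19, adjusted p = 1.16e-07).

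Of 29 genes of glycolysis and the pentose phosphate pathway 18 were higher and 7 lower, median 0.56. The enzymes Tpi1 and Hk2 rose from 60.6, 67.1 and 66.7 to 204, 206 and 169.7 TPM (1.56 ± 0.09, adjusted p = 1.44e-06) and from 3.04 to 11.1 TPM, and Gapdh from 233 to 472 TPM. The sugar transporters fell: Slc2a3 was at 34.2, 36.5 and 28.4 TPM in B2 and 8.75, 10.8 and 7.81 TPM in B2B1 (−1.75 ± 0.14, adjusted p = 9.37e-06), Slc2a6 at means of 19.7 and 4.31 TPM and Slc2a1 at 55.3 and 37.8 TPM (not called with median-of-ratios scaling, adjusted p = 0.0542). Pdk1, which restrains entry of pyruvate into mitochondria, fell from 30.98 to 10.01 TPM and its relative Pdk3 rose from 17.1 to 38.4 TPM.

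Cholesterol and fatty acid synthesis had 12 lower and 3 higher of 27, median −0.22 (9 and 7 with either rescaling, and 1 higher without B2 library 1 or 3). Scd1, a fatty acid desaturase, fell from 571 to 214 TPM. Lipid handling was split, with 10 higher and 11 lower of 25 (median 0.04). Fabp5, a fatty acid carrier listed at 0 throughout B2, reached 7.94, 6.41 and 3.07 TPM in B2B1, the lipid droplet gene Plin3 rose from 21.1 to 124 TPM and the lysosomal cholesterol carrier Npc2 from 42.99 to 144 TPM. Abca1, which exports cholesterol, fell from 59.6, 51.8 and 49.99 to 6.61, 12.8 and 9.56 TPM, and Pltp from 42.4 to 2.81 TPM. Of 32 lysosome and autophagy genes 16 were higher and 4 lower, median 0.24, led by Ctsb (38.2 to 120.1 TPM), Sqstm1 (134 to 386) and Psap (603 to 1671). Amino acid and ion transporters had 6 higher and 13 lower of 25, median −0.38, with Slc7a7 rising from 5.60 to 53.6 TPM.

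Housekeeping machinery differed little. Cytosolic ribosomal proteins had 40 higher and 1 lower of 73 with a median of only 0.20, and the scaling decided their calls: 64 were higher with median-of-ratios factors, and 15 higher and 10 lower with quantile normalization. Rplp0 had the largest difference among them (0.74 ± 0.09). Respiratory chain subunits had 35 higher and 7 lower of 70 (median 0.21; 56 and 1, or 50 and 4, with those scalings) and proteasome subunits 11 higher and 3 lower of 36 (median 0.09; 26 or 21 higher). With 1 library left out at a time, the lower calls of these 3 lists ranged over 1 to 3, 4 to 8 and 0 to 4. Many ribosomal protein genes have processed pseudogenes with which they can share reads.

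The switched cells were not identical to peritoneal B1 cells. limma called 2108 of the 11099 genes (19.0%) between B2B1 and B1. That count was less steady than the one against B2: it was 1129 when only the libraries of the 2 groups were fitted, 842 with sex as a covariate and 1341 without B1 library 1, and all B1 libraries were female while 2 of 3 B2B1 libraries were male. The 2 comparisons share the B2B1 libraries, so values are given side by side. Some genes stood nearer to B2 than to B1. Il9r, the interleukin 9 receptor, was at 363, 396 and 379 TPM in B2, 224, 229 and 153 TPM in B2B1 and 4.09, 1.92 and 4.87 TPM in B1, with a log2 difference of −0.93 to B2 and of 5.49 ± 0.25 to B1 (adjusted p = 0.00918 and 7.52e-06). Il12a, not called against B2 as given above, was far higher than in B1: the B1 libraries held 2.69, 0.452 and 3.24 TPM (log2 difference to B1 4.22 ± 0.38, adjusted p = 0.000234).

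Other genes had their highest level in B2B1. Lag3, an inhibitory receptor that binds MHC class II, was at 0.942, 0.410 and 0.566 TPM in B2, 30.5, 31.02 and 74.97 TPM in B2B1 and 1.82, 0.871 and 2.15 TPM in B1 (difference to B1 4.06 ± 0.34, adjusted p = 0.000187). Slc9a3r2, a membrane scaffold listed at 0 throughout B2, stood at 66.2, 30.4 and 33.2 TPM in B2B1 and 3.71, 0.588 and 4.62 TPM in B1. Sytl1, an effector of Rab27 in vesicle release, was at 1.44, 1.37 and 1.41, 103, 68.9 and 72.9 and 8.63, 6.37 and 7.74 TPM in the 3 groups. The lowest B2B1 value exceeded the highest B1 value in each of these genes. Among genes called against both B2 and B1, a limit that leaves out Il12a, Gstt1, Ndrg1, Gbp10, Rasal1, Serpinb8 and Dusp14 completed the 10 with the largest positive differences to B1, with log2 differences from 2.73 to 3.90.

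On the opposite side, B2B1 cells had less than both other groups of several genes. Ptpn14, a cytosolic phosphatase, was at 9.81, 9.34 and 8.96 TPM in B2, 0.963, 0.584 and 1.31 TPM in B2B1 and 42.4, 14.6 and 38.5 TPM in B1 (difference to B1 −3.95 ± 0.34, adjusted p = 0.000197). Fkbp11 and Abca1 followed that pattern, with B1 means of 18.2 and 58.6 TPM near those of B2. Pde2a and Dennd3 were lost further than in B1 (B1 means 16.6 and 8.39 TPM). The B1 mean of Pde2a rested on library 2, with 7.13, 37.7 and 5.08 TPM in the B1 libraries. The call of Pde2a against B1 was lost when only the 2 groups were fitted (adjusted p = 0.0597) or with sex as a covariate (0.0819). Prkar2b reached only part of its B1 level (32.8, 127 and 58.6 TPM), and Fbxw13, Pygl, Lifr and Neurod4 made up the rest of the 10 largest negative differences among genes called against both groups, a limit that leaves out Cd5.

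**Figure D5:**
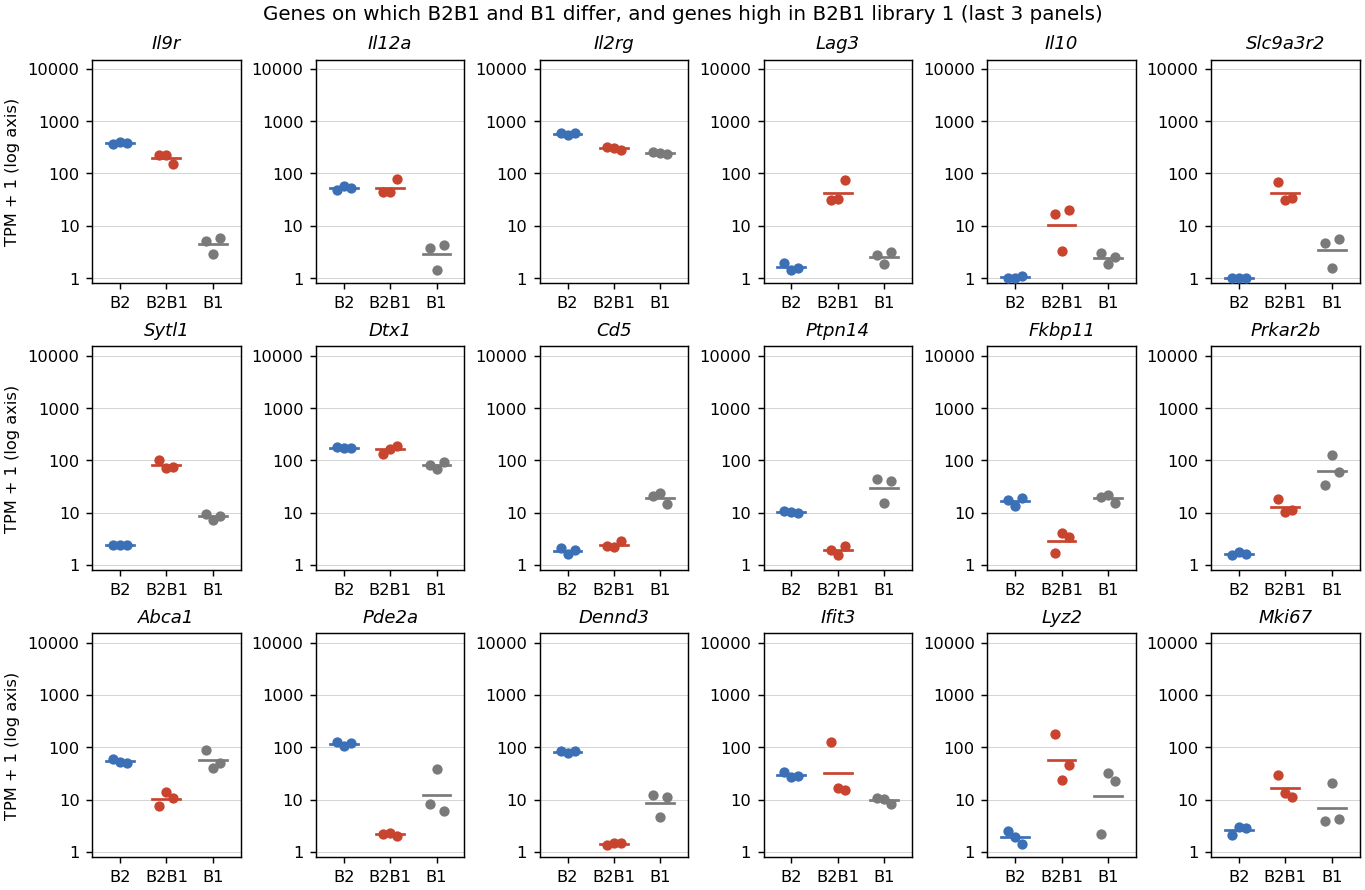
TPM plus 1 on a log axis in each library of B2 (blue), B2B1 (red) and B1 (grey) for 18 genes, where lines are means of log values. Il9r and Il12a lie far above B1 in B2 and B2B1, Lag3, Slc9a3r2 and Sytl1 are highest in B2B1, and Cd5 stays low. In the last 3 panels B2B1 library 1 is the highest of all libraries for Ifit3, Lyz2 and Mki67.

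Transcripts of other cell types were measured beside these results. Of 9 tested macrophage markers 7 were higher in B2B1 and 2 lower, and the summed TPM of that list was 149 to 157 in B2, 153 to 367 in B2B1 and 104 to 136 in B1. Lyz2, the lysozyme of macrophages, was at 1.52, 0.954 and 0.424 TPM in B2 and 181, 22.3 and 44.5 TPM in B2B1, and C1qa at 0.271, 0.117 and 0.103 and 7.77, 1.94 and 4.39 TPM, with library 1 highest in both. Emr1, which encodes F4/80, was at 51.96, 39.9 and 40.1 TPM in the B2B1 libraries. The receptor gene Csf1r of macrophages was at 0.163, 0.141 and 0.149 TPM in B2 and 2.13, 0.516 and 0.458 TPM in B2B1. Without B2B1 library 1, 7 of the 9 were called higher. Macrophages also express Emr1, Itgam, Lgals3, Cd63, Fcer1g, Ccr1, S100a4, Anxa2 and Vim, and the part of macrophage RNA in the rise of these genes was not tested. Over the B2B1 libraries Lyz2 spanned 22.3 to 181 TPM, Anxa2 251 to 559, Cd63 47.96 to 81.5, S100a4 659 to 811 and Vim 2510 to 3164 TPM. B2B1 library 1 was the highest for Lyz2, Anxa2, Cd63, S100a4, Emr1, Lgals3 and Ccr1 and the lowest for Vim. Of the T cell list, Cd3e was at 0, 0 and 0.0681 TPM in B2B1, and the summed level of the list followed Cd2, which B cells express (301 to 828 TPM). Of the natural killer cell, neutrophil and erythroid lists only 6 members reached the filter, of which 2 were lower and the others not called. Of 7 tested dendritic cell genes 4 were higher and 2 lower, among them Ccr9 and Flt3 (15.2 to 0.114 TPM). The keratin genes Krt18 and Krt8 of mesothelium were at 16.5, 4.19 and 7.65 and 6.21, 1.71 and 3.36 TPM in B2B1, and the mesothelial marker Msln at 0, 0 and 0 TPM.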

How the data were processed

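RNA was sequenced from 9 libraries of mouse B cells (3 B2, 3 B2B1, 3 B1), prepared from polyA RNA with a TruSeq kit, per the labels' protocols. The values are TPM per gene in 1 deposited table of 22178 gene symbols, made by the authors with CASAVA 1.8.2, kallisto and mm10, per the submitters' processing notes. The annotation is not given in the sources used here, nor is the read depth, so no counting interval can be given.

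Genes with a mean of at least 1 TPM over the 9 libraries were analysed as log2(TPM + 1), a scale that understates fold changes of low genes. One limma 3.58.1 model (R 4.3.3, empirical Bayes with a mean-variance trend) was fitted to all 9 libraries with group as its only term, so the B1 libraries share in the estimate of the spread. Contrasts were called at a Benjamini-Hochberg adjusted p under 0.05 over all genes, two-sided. Errors after ± are standard errors of log2 differences. With 3 against 3 libraries, an exact permutation test of 1 gene cannot go below 0.1. The script was tested on simulated data. Tables and figures were made with Python 3.11.15, pandas 2.3.3 and matplotlib 3.10.9. Of the tested genes, 10610 matched GENCODE M21 and 10529 RefSeq symbols, and 8328 had a promoter entry.

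Alternatives were other pseudocounts (0.1 and 0.5), filters, median-of-ratios rescaling, quantile normalization, a fit of 2 groups, library weights, sex as a covariate, a replicate block and leaving out each library. The members and lists were chosen with earlier results of these data known. Named were the 15 highest and 15 lowest called genes with groups that did not overlap and a mean of at least 5 TPM, the 10 largest gains and losses in TPM, genes under 1 TPM in 1 group and at least 20 TPM in the other, up to 6 called members per list with members that did not pass, and, among such genes called against both B2 and B1, the 10 largest differences to B1 in each direction. Of the named genes, 43 were chosen after their values were seen: Bcl2a1b, Bcl3, Blk, Btg1, Btk, Btla, C1qa, Ccr7, Ciita, Csf2rb2, Csk, Ddx3y, Dok2, Dusp4, Dusp7, Ebi3, Egr3, Ezh2, Fcamr, Fcer1g, Fosb, Gapdh, Gpr183, Havcr1, Irf4, Itgb7, Klf2, Krt8, Lck, Myb, Npc2, Nt5e, Plscr1, Ppp3cc, Ptpn6, Rasgrp1, Slc2a1, Syk, Tlr9, Tnfrsf13b, Xist, Zfp36 and Zyx, as were further genes drawn only in the pathway plot. Immunoglobulin and mitochondrial transcripts and some genes that the rule picks are not reported here.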

Additional observations from a re-analysis of the deposited data

How the results depend on the processing

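Against B2, the count of 6995 called genes (63.0%) stayed between 5896 and 7786 under all alternatives. The extremes, a filter at 5 TPM and no filter, tested other numbers of genes. They gave 5896 of 9070 (65.0%) and 7786 of 16510 (47.2%), so the share ran the other way. When 1 library was left out the count lay between 6104 and 7358. The largest shift of direction came from rescaling: 3031 genes were lower with median-of-ratios factors in place of 4663, which follows from the shift of the median gene. With 1 library left out, the higher genes numbered 2024 to 2468 and the lower genes 4060 to 4890. Against B1, the 2108 called genes became 1129 in a fit of the 2 groups only, 842 with sex as a covariate, and 1341 to 2445 with 1 library left out, the lowest without B1 library 1. Of 259 named genes, 16 had log2 fold changes of both signs over the alternatives, and 0 of these 16 were called against B2 as reported. The log2 fold change of Ifit3, one of them, ran from −0.88 without B2B1 library 1 to 0.62 without B2B1 library 3. The titles share replicate numbers, but same-numbered B2 and B2B1 libraries deviated together with correlations of only −0.04, 0.06 and 0.12, so the numbers were not taken as pairs. With a replicate block 6855 genes were called against B2 (2284 higher, 4571 lower). TPM give no depth, so how far sampling noise limits low genes is unknown.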
